A study of Mus musculus with 3 samples.

Results

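The interleukin-1 (IL-1) system was followed in islet graft-bearing spleens of C57BL/6J mice through 10 genes: the ligands Il1a, Il1b, Il18 and Il33, the inhibitors Il1rn and Il18bp, and the receptor genes Il1r1, Il1rap, Il1r2 and Il1rl1. All probes of the array that carry these gene names were taken, which gave 14 of the 55681 probes. Of these, 13 were well above background on at least 1 array and 8 on all 3. Each gene is described by its brightest detected probe, and the others are given where they exist.

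The recipients were male mice made diabetic with streptozotocin, which received 25 syngeneic islets into the spleen and 100 beneath the kidney capsule (SP25+KC100). Spleen RNA was taken at once after transplantation (day 0, Sample 1), on day 2 (Sample 2) and on day 139 (Sample 3), the last from mice whose graft-bearing kidney had been removed on day 100. The sample characteristics name the capsular graft for day 139 alone, whereas the treatment text and the study's methods give it for all 3 samples, as is done here. There was 1 array for each day, no untreated or sham-operated spleen, and no stated number of mice behind an array. No p-value can therefore be given, each difference is one between 2 arrays, and day cannot be told apart from mouse, handling or array. Nor can day 139 be told apart from the removal of the kidney with its graft. The 3 arrays lay on 1 slide.

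IL-1 beta, made mainly by myeloid cells, and IL-1 alpha, which other cells make as well, start inflammation through the receptor IL-1R1 and its shared partner, the accessory protein IL-1RAcP. The family is held back by natural inhibitors: the receptor antagonist (Il1rn) occupies IL-1R1 without signaling, the type II receptor (Il1r2) is a decoy that binds IL-1 without signaling, and IL-18 binding protein (Il18bp) captures IL-18. IL-1 beta and IL-18 are released after cleavage by caspase-1 in the inflammasome, while IL-33 is a nuclear alarmin of stromal cells that is sensed by ST2 (Il1rl1) on mast cells, regulatory T cells and other cells. In pancreatic islets, IL-1 beta is known for its harm to beta cells.

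The sequences shown here belong to the genes with the widest changes. The probes of Il1r2 (chr1:40180014-40180073, plus strand) and Il1rn (chr2:24205094-24205153, plus strand), in mm9 coordinates of the array annotation, were read from the deposited files and are given 5′ to 3′. The Il1rn probe is assigned to transcript variant 2 and lists the other RefSeq variants of the gene too, so it does not separate them.
Il1r2 probe: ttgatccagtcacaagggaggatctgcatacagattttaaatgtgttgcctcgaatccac
Il1rn probe: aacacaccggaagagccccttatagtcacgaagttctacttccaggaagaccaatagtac
The 250 bases upstream of the RefSeq start of Il1b (chr2:129371140-129371389, minus strand) and Il1r2 (chr1:40085843-40086092, plus strand) follow, in GRCm38.p6 coordinates and in the direction of the gene. Capitals mark a match to the C/EBP motif TTNNGNAA on either strand.
Il1b upstream: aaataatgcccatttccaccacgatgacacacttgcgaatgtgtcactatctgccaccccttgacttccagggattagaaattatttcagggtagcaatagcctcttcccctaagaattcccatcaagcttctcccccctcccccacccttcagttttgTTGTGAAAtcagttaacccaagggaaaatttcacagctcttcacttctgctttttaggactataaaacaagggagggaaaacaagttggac
Il1r2 upstream: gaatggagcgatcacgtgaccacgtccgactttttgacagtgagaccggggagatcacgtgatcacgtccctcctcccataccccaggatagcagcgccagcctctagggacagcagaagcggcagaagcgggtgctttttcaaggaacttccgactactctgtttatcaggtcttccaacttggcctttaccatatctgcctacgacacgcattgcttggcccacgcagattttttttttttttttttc
Such matches are letters only and show no binding. The C/EBP motif was found upstream of 7 of the 10 genes, and in 11 of their 15 listed promoters, some of which overlap. It was present in 36.8% of the 32851 mouse promoters of the same length. The AP-1 motif TGANTCA (6.75% of all promoters) was found upstream of Il1a and Il1rn, the PU.1 motif GAGGAA (23.3%) upstream of Il1a, where it overlaps the C/EBP match, and the NF-kB motif (7.25%) upstream of Il1r1, where it also overlaps a C/EBP match. For Il1r2, Il18 and Il1rap no match to these 4 motifs lay in this window.

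Signals were quantile normalized over the 3 arrays, and a ratio is the normalized signal of the later day over that of the earlier one. Following the criteria of the study, a gene is called lower when its ratio was at most 0.66 and its Z-score at most -2, and higher at a ratio of at least 1.5 and a Z-score of at least 2. For the Z-score, a gene's log2 ratio was taken in units of the SD that the 1000 probes of closest mean signal showed, so it compares a gene with other genes and not with replicate mice. An error given after a log2 ratio is the scanner software's own estimate for the spots, which covers neither labeling nor mice.

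In Sample 1 the IL-1 system stood at its highest. The genes were chosen with it known that inflammation genes were highest on day 0 in these data. The shares of all genes given beside the counts therefore describe the set and are no independent evidence of its direction. Of the 8 genes well above background on all arrays, 7 had their highest signal on day 0, against 29.4% of the 19808 genes of this kind on the array, and 6 had their lowest on day 139, against 36.6%. Under spike-in scaling these counts were 6, against 13.5%, and 3, against 9.56%, since Il18bp was then highest on day 139 and Il1rap, Il18 and Il33 were lowest on day 2. With quantile normalization the exceptions were Il1rl1, which was highest on day 2, and Il1b and Il18bp, which were lowest on day 2. On day 2, 4 of the 10 genes were called lower than on day 0 (Il1b, Il1rn, Il1r2 and Il1rap) and 0 were called higher. Over all 22851 detected genes, 2.88% were called lower and 2.20% higher in this comparison. On day 139, 5 of the 10 were called lower than on day 0, namely the same 4 genes and Il1rl1, where the background was 2.45%, and 0 were called higher, where it was 3.00%. Of these 5 calls, 2 (Il1rn and Il1r2) were kept under spike-in scaling, and 3 with 1 SD over all probes in the Z-score. Between day 2 and day 139, 1 gene was called lower (Il1rl1), against a background of 1.96%, and 0 higher, against 2.80%. With detection required on all 3 arrays, 3, 4 and 1 genes were called lower and 0 higher in the 3 comparisons. By the ratio criterion alone, 7, 9 and 4 of the 10 genes were lower in the 3 comparisons, in the order given, against 9.87%, 13.7% and 13.5% of all genes, and 0, 0 and 1 were higher, against 9.94%, 13.6% and 12.8%. With dim signals at their bounds, 6, 8 and 3 were lower and 0, 0 and 1 higher. The comparisons share their arrays and are not independent.

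The median log2 ratio of the 10 genes was -0.88 for day 2 over day 0, -1.06 for day 139 over day 0 and -0.28 for day 139 over day 2. The medians of all detected genes were 0.02, -0.00 and -0.03. Where a dim signal is set to its bound and a gene with neither a ratio nor a bound is left out (Il1a in both comparisons with day 139), the medians of the IL-1 system were -0.64, -1.20 and -0.28. Scaling by the spike-in controls, whose signal in Sample 3 was 65.9% of that in Sample 1, shifted the median log2 ratio of all genes by 0.38 for day 139 over day 0 and by 0.43 for day 139 over day 2, and that for day 2 over day 0 by -0.05. Members whose direction turns on this choice are pointed out where they are described. In a whole spleen, fewer cells of a type and less RNA per cell cannot be told apart.

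**Figure D1:**
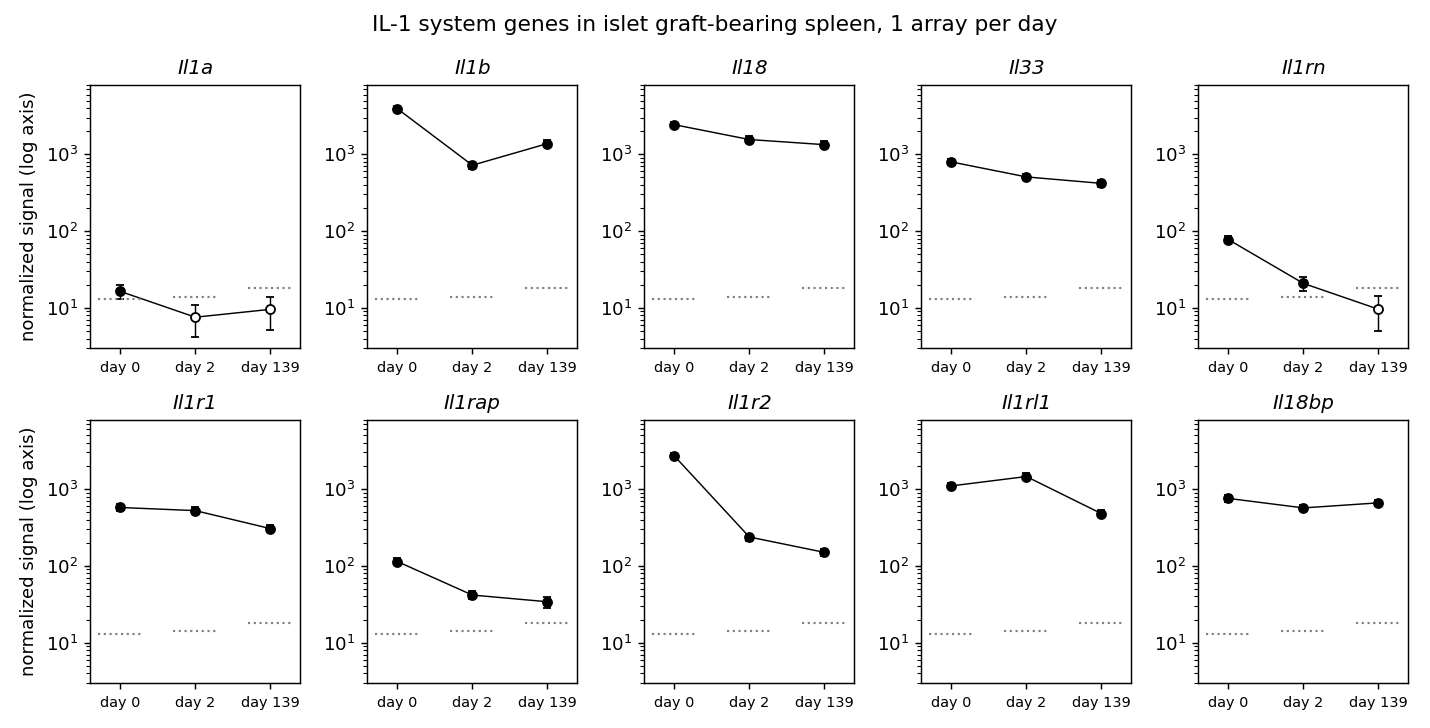
Normalized signal (log axis) of the 10 IL-1 system genes in spleen RNA from day 0, day 2 and day 139, with 1 array per day. Filled points are well above background and open points are not, bars are the scanner software's error, and dotted lines mark the lowest signal well above background on each array (12.9, 14.03 and 18.2). Il1r2 drops from 2699 to 238 and 150, whereas Il18bp stays between 568 and 756. Levels of different genes are read by different probes and cannot be compared.

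The gene Il1b, the main secreted IL-1 ligand, had normalized signals of 3926 on day 0, 721 on day 2 and 1378 on day 139. It was thus lowest on day 2 and intermediate on day 139. Its signal on day 2 was 5.45-fold lower than on day 0 (log2 ratio -2.45 ± 0.20, Z-score -5.94), and 207 of the 22851 genes had a lower ratio. On day 139 it was 2.85-fold lower than on day 0 (-1.51 ± 0.20, Z-score -2.74), a call that was lost under spike-in scaling (Z-score -1.9996) and with 1 SD over all probes (Z-score -1.81). From day 2 to day 139 the ratio was 1.91 (0.93 ± 0.20, Z-score 1.58), which did not pass the criteria. It passed under spike-in scaling, with a log2 ratio of 1.38 and a Z-score of 2.34, and with a median absolute deviation as the spread (Z-score 2.56).

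Il1b is the 1 gene of the system printed as several spots, with 10 copies of its probe on each array (mm9 chr2:129190347-129190406, minus strand). Before normalization the 10 spots read from 3742 to 4319 on day 0, from 698 to 810 on day 2 and from 1170 to 1346 on day 139. The ranges of the 3 arrays did not overlap. Their coefficient of variation was 4.37%, 4.46% and 4.04%, so the differences between arrays are far larger than the spread of spots within an array, which is the only repeat of an IL-1 system gene within an array.

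The other IL-1 receptor agonist, Il1a, was close to background. Its signal was 16.4 on day 0, 7.58 on day 2 and 9.59 on day 139, and only the first was well above background, where the lowest such signal was 12.9. It was at least 1.17-fold lower on day 2 than on day 0, and it was not called in any comparison. For day 139 no fold is given, since the lowest signal well above background on that array (18.2) exceeded the day 0 signal.

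The receptor antagonist Il1rn had signals of 77.6, 20.9 and 9.63, the last not well above background. It was 3.72-fold lower on day 2 than on day 0 (log2 ratio -1.89 ± 0.33, Z-score -2.58) and at least 4.27-fold lower on day 139. From day 2 to day 139 it was at least 1.15-fold lower and was not called. The log2 ratio of Il1rn minus that of Il1b was 0.55 ± 0.39 for day 2 over day 0, so on day 2 the drop of the ligand exceeded that of its antagonist by little more than the error. On day 139 the order was the other way, with at least 4.27-fold for Il1rn against 2.85-fold for Il1b. The Il1rn signal was then not well above background, which the bound allows for. With the normexp background correction the log2 ratio over day 0 was -1.48 for Il1b and -0.79 for Il1rn. That setting cannot decide the order, since its offset of 50 is not small beside the day 0 signal of Il1rn and shrinks its ratio. The order on day 139 thus rests on the bound and on 1 probe for each gene.

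**Figure D2:**
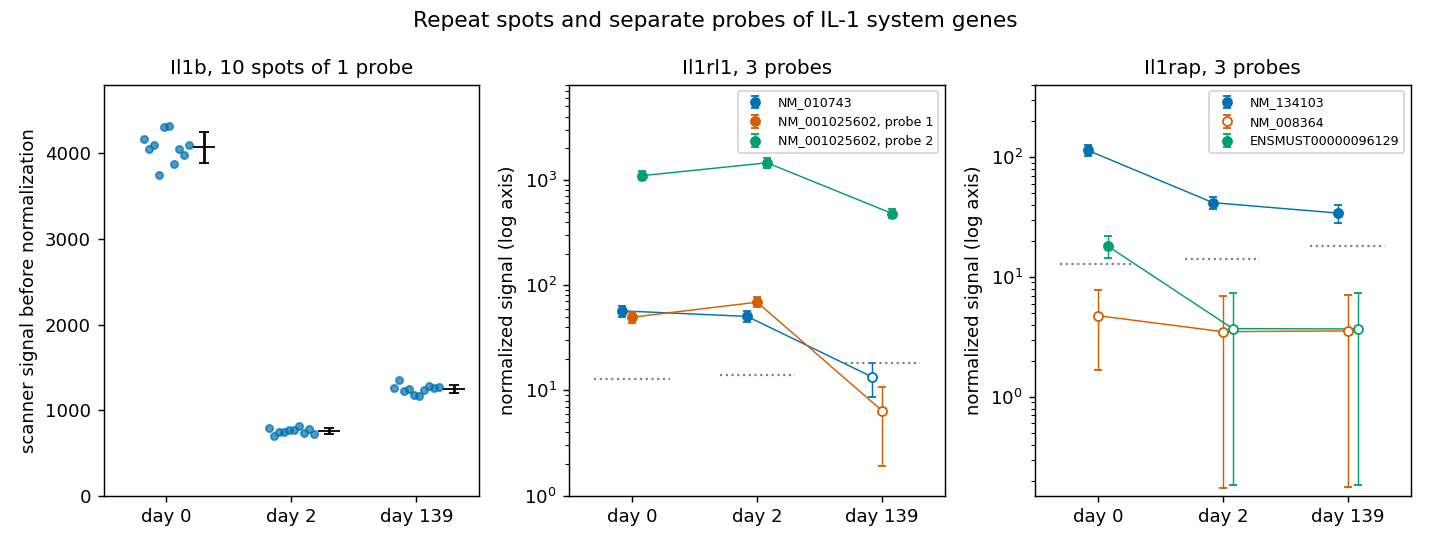
Repeat measurements within the IL-1 system. Left, scanner signal before normalization of the 10 spots of Il1b on each array, with the mean and SD beside them (linear axis from 0); the ranges of the 3 days do not overlap. Middle and right, normalized signals (log axis) of the 3 probes each of Il1rl1 and Il1rap, with the scanner error as bars, open points not well above background, and dotted lines at the lowest signal well above background. All 3 probes of Il1rl1 are lowest on day 139.

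Il1r2, the decoy receptor, had the largest measured change of the 10 genes in both comparisons with day 0, where that of Il1rn on day 139 is a lower bound only. Its signals were 2699 on day 0, 238 on day 2 and 150 on day 139, all well above background. Day 0 stood far above the other 2 days, which lay close together. The signal was 11.4-fold lower on day 2 (log2 ratio -3.51 ± 0.21, Z-score -6.27), where 53 of the 22851 genes had a lower ratio, and 17.99-fold lower on day 139 (-4.17 ± 0.21, Z-score -6.54), where 18 had a lower ratio. From day 2 to day 139 it was 1.58-fold lower (-0.66 ± 0.21, Z-score -1.03), which was not called. Over the 14 alternative settings, its log2 ratio for day 139 over day 0 ranged from -4.17 to -3.66.

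By contrast, the signaling receptor Il1r1, whose probe lies on the same stretch of chromosome 1 (mm9 chr1:40372667-40372726, plus strand), had signals of 576, 524 and 306 and was called in 0 comparisons. Its log2 ratio was -0.14 ± 0.20 for day 2 over day 0, within the error, and -0.91 ± 0.21 for day 139 over day 0 (Z-score -1.41). The ratio for day 139 over day 0 passed with a median absolute deviation as the spread (Z-score -2.34). The log2 ratio of the decoy minus that of the signaling receptor was -3.37 ± 0.29 for day 2 over day 0 and -3.26 ± 0.29 for day 139 over day 0, which is a 10.3-fold and a 9.56-fold shift of 1 receptor relative to the other. Between day 2 and day 139 this difference was 0.11 ± 0.29. A constant scaling factor of an array cancels in such a difference, since both probes are read on the same 2 arrays. Effects of quantile normalization or background correction that depend on the signal do not cancel. The decoy also dropped more than the ligand Il1b, by a log2 difference of -1.06 ± 0.29 on day 2 and -2.66 ± 0.29 on day 139, each relative to day 0.

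Il1rap, the accessory chain that the receptors for IL-1, IL-33 and IL-36 share, had 3 probes, which differ in the transcript they are assigned to. The brightest one, of transcript variant 2 (NM_134103), which encodes a soluble form, had signals of 114, 41.7 and 34.1. It was 2.73-fold lower on day 2 (log2 ratio -1.45 ± 0.23, Z-score -2.32) and 3.34-fold lower on day 139 (-1.74 ± 0.28, Z-score -2.18) than on day 0. These calls were near the limit: that for day 139 was lost with the normexp background correction (Z-score -1.90) and under spike-in scaling (Z-score -1.74), and both were lost with the median over the detected probes, at larger log2 ratios of -1.87 and -2.02 but Z-scores of -1.85 and -1.61. Day 139 over day 2 gave a log2 ratio of -0.29 ± 0.30, which was 0.12 under spike-in scaling. The probe of transcript variant 1 (NM_008364), the membrane-bound form, was not well above background on any array, with signals of 4.76, 3.50 and 3.55. The third, assigned to ENSMUST00000096129, read 18.1 on day 0 and was not well above background on day 2 (3.71) or day 139 (3.69). The decrease thus rests on the variant 2 probe, and no ratio can be given for the membrane-bound form.

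Il1rl1, which encodes the IL-33 receptor ST2, followed another course. Its brightest probe, of transcript variant 1 (NM_001025602), the membrane-bound form, had signals of 1099 on day 0, 1456 on day 2 and 480 on day 139. The ratio on day 2 was 1.32 (log2 ratio 0.41 ± 0.20, Z-score 1.01), which was not called. On day 139 the signal was 2.29-fold lower than on day 0 (-1.20 ± 0.20, Z-score -2.21) and 3.04-fold lower than on day 2 (-1.60 ± 0.20, Z-score -2.82). The call against day 0 was lost under spike-in scaling (Z-score -1.48), with a window of 250 probes (-1.99) and with 1 SD over all probes (-1.43). That against day 2 was not lost under any of the 14 alternatives.

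The other Il1rl1 probes were dimmer and also lowest on day 139. A second probe of variant 1 read 49.6 and 69.0 on days 0 and 2 and 6.40, not well above background, on day 139, where it was at least 2.73-fold lower than on day 0 and at least 3.79-fold lower than on day 2. The probe of variant 2 (NM_010743), which encodes soluble ST2, read 57.0 and 50.5, and 13.4 on day 139, again not well above background. It was at least 3.13-fold lower than on day 0 and at least 2.78-fold lower than on day 2. All 3 probes met the criteria on day 139 against both earlier days. They did not share a direction on day 2, when the log2 ratios were 0.41 and 0.47 for variant 1 and -0.17 for variant 2, none of them called.

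**Figure D3:**
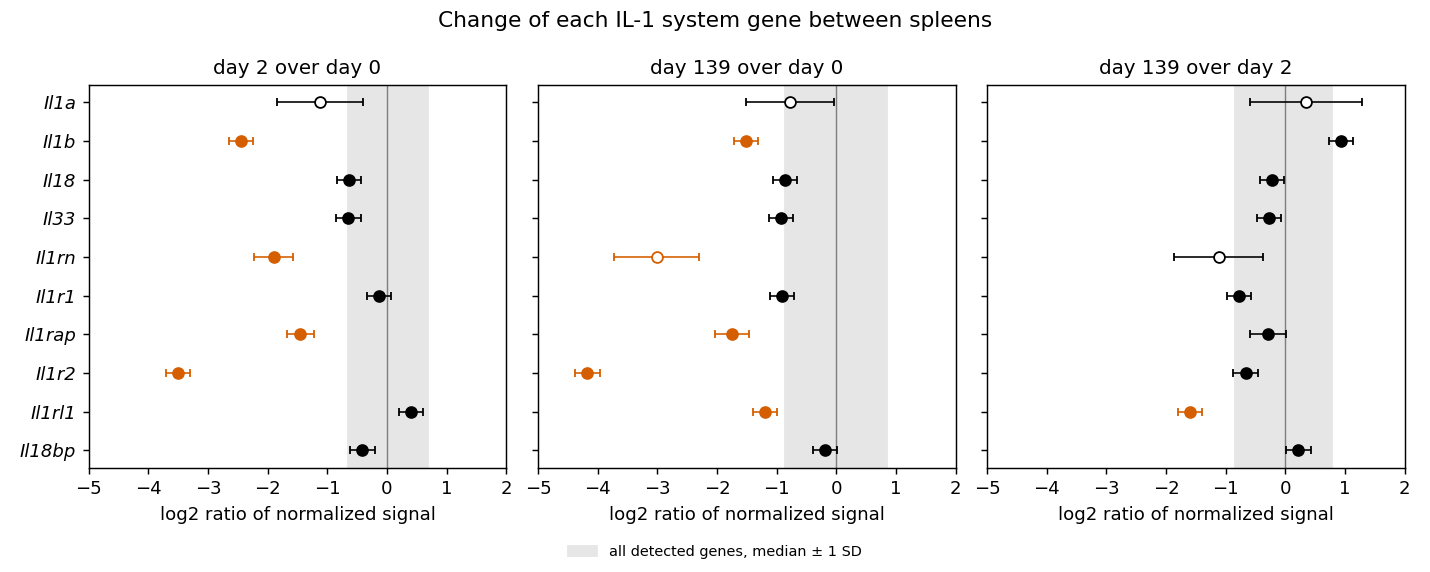
Log2 ratio of normalized signal of each IL-1 system gene in the 3 comparisons. Bars are the error from the scanner software, orange points passed both criteria, open points involve a signal that was not well above background (their log2 ratio is not a bound), and the grey band is the median ± 1 SD of all 22851 detected genes. Il1r2 lies farthest to the left in both comparisons with day 0, and Il1rl1 is the 1 called gene for day 139 over day 2.

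The remaining ligands were not called in any comparison. Il33, the IL-33 gene, had signals of 796, 508 and 419, with day 0 the highest and the other 2 days near each other. Its log2 ratio was -0.65 ± 0.20 for day 2 and -0.93 ± 0.20 for day 139, both over day 0, and -0.28 ± 0.20 for day 139 over day 2, which was 0.17 under spike-in scaling. IL-33 and its receptor thus differed in course: the log2 ratio of Il33 minus that of Il1rl1 was -1.05 ± 0.29 for day 2 over day 0, 0.27 ± 0.29 for day 139 over day 0 and 1.32 ± 0.29 for day 139 over day 2.

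Il18, the other inflammasome substrate, had signals of 2430, 1557 and 1335. Its log2 ratio over day 0 was -0.64 ± 0.20 on day 2 (Z-score -1.62) and -0.86 ± 0.20 on day 139 (Z-score -1.64), so it was not called. Both ratios passed with a median absolute deviation as the spread, as did those of Il33. The log2 ratio was -0.22 ± 0.20 for day 139 over day 2, or 0.22 under spike-in scaling. Relative to Il18, Il1b was lower by 1.80 ± 0.29 on the log2 scale on day 2 and by 0.65 ± 0.29 on day 139, each over day 0.

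With quantile normalization Il18bp, the soluble inhibitor of IL-18, was the steadiest of the 8 genes measured on all 3 arrays. Its signals were 756, 568 and 661, with the narrowest log2 range (0.41). Under spike-in scaling it was not the steadiest. Its log2 ratio for day 139 over day 2 was then 0.67, whereas the widest of Il1r1 was -0.52, for day 139 over day 0. With quantile normalization the log2 ratio of Il18bp was -0.41 ± 0.20 for day 2 over day 0 and 0.22 ± 0.20 for day 139 over day 2. For day 139 over day 0 it was -0.19 ± 0.20, within the error, and 0.20 under spike-in scaling. The ratio of Il18 to its inhibitor shifted by -0.23 ± 0.29 on day 2 and by -0.67 ± 0.29 on day 139, in log2 units over day 0.

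The measured genes of the IL-1 receptor cluster, which lie close together on chromosome 1, did not move as a block. In the order of their probes on mm9 these were Il1r2, Il1r1, Il1rl1, Il18r1 and Il18rap, and their ratios for day 2 over day 0 were 0.0880, 0.910, 1.32, 0.896 and 0.268. For day 139 over day 0 they were 0.0556, 0.531, 0.436, 1.31 and 0.385. The IL-18 receptor chains thus parted as well. Il18rap, the accessory chain, had signals of 87.5, 23.5 and 33.7 and was called lower on day 2, at a 3.73-fold difference. Il18r1, the binding chain, read 297, 266 and 390 and was not called. Sigirr, an inhibitory receptor of the family, read 892, 881 and 1172 and was not called. Il1rl2, another receptor gene of the family, had no detected probe. Of the other ligands of the family, only Il36g (Il1f9 on the array), an epithelial alarmin, was measured, with 85.4 on day 0 and signals not well above background on day 2 (11.8) and day 139 (3.15). It was at least 6.08-fold and at least 4.69-fold lower than on day 0.

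Beyond the 10 genes, 65 pathway genes were listed and 57 were measured. Of these, 10 were called lower and 0 higher on day 2 over day 0, 9 lower and 0 higher on day 139 over day 0, and 4 lower and 1 higher on day 139 over day 2. Under spike-in scaling they were 11 lower and 0 higher, 9 lower and 2 higher, and 3 lower and 4 higher, so the balance of the last comparison turns on the scaling. With detection on all 3 arrays, 6 were called lower and 0 higher in each comparison with day 0. In the last comparison, 2 were then lower and 1 higher. A gene well above background on day 0 alone, such as Il36g or Ptgs2, could hardly be called higher than on day 0. Over all detected genes, 2.88%, 2.45% and 1.96% were called lower and 2.20%, 3.00% and 2.80% higher in the 3 comparisons. Among the 20 genes of receptor signaling, from the adaptor Myd88 to the kinases of the IRAK family and NF-kB itself, 0 were called in any of the 3 comparisons. With 1.96% to 3.00% of all genes called in a direction, 0 of 20 is near the background and is no result about these genes. Their median log2 ratios were -0.04, 0.04 and 0.13 in the 3 comparisons. The gene farthest from 0 in both comparisons with day 0 was Myd88, at 2983, 1777 and 1633, with log2 ratios of -0.75 and -0.87. In the third comparison it was Peli1, a ubiquitin ligase of the pathway, at 0.83 for day 139 over day 2 (1544 and 2750).

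Of the 14 genes of the inflammasome and of cytokine processing, 1 was called lower on day 2 over day 0, Mefv, which encodes the inflammasome sensor pyrin and read 2324, 1103 and 1377. Between day 2 and day 139, 1 was called higher, Nek7, which encodes a kinase that binds NLRP3 and read 1861, 1372 and 3190. With 1.96% to 3.00% of all genes called in a direction, 1 of 14 is near the background and is no result about these genes. Their median log2 ratios were -0.10, 0.18 and 0.22. Nlrp3, an inflammasome sensor and the gene farthest from 0 for day 139 over day 0, read 45.0, 30.6 and 24.2. Casp1, which encodes the enzyme that cleaves IL-1 beta and was chosen after its values were seen, read 1651, 1580 and 2521. Neither was called.

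Among the 19 measured genes that IL-1 and NF-kB induce, 7 were called lower on day 2 over day 0, 8 on day 139 over day 0 and 4 on day 139 over day 2, with 0 higher. Of all detected genes, 2.88%, 2.45% and 1.96% were called lower in these comparisons, and 2.20%, 3.00% and 2.80% higher. Il6, a cytokine that IL-1 induces in stromal and myeloid cells, read 841, 50.9 and 40.4. The neutrophil chemokine Cxcl2 read 257 and 38.9, and 3.68 on day 139, which was not well above background. Cxcl1, another neutrophil chemokine, read 158 and 40.7, and 12.9 on day 139, also not well above background. Ccl2, a monocyte chemokine, read 1957, 1007 and 151 and was called lower in each of the 3 comparisons. Ptgs2, which encodes the prostaglandin enzyme COX-2, read 76.5 on day 0 and was not well above background afterwards (9.10 and 5.59). Socs3, a feedback inhibitor of cytokine receptors, read 7204, 1645 and 2315, and Lcn2, a neutrophil and acute-phase protein, 9597, 2346 and 1739. Not all genes of the list were highest on day 0: Saa3, an acute-phase gene, read 7835, 13382 and 403, with a 33.2-fold drop from day 2 to day 139. Nor did all move, as Nfkbia, the inhibitor of NF-kB that was picked for comparison after its values were seen, read 13407, 12430 and 13298. The median log2 ratio of this list was -0.63 for day 2 and -0.51 for day 139 over day 0, and 0.10 for day 139 over day 2.

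**Figure D4:**
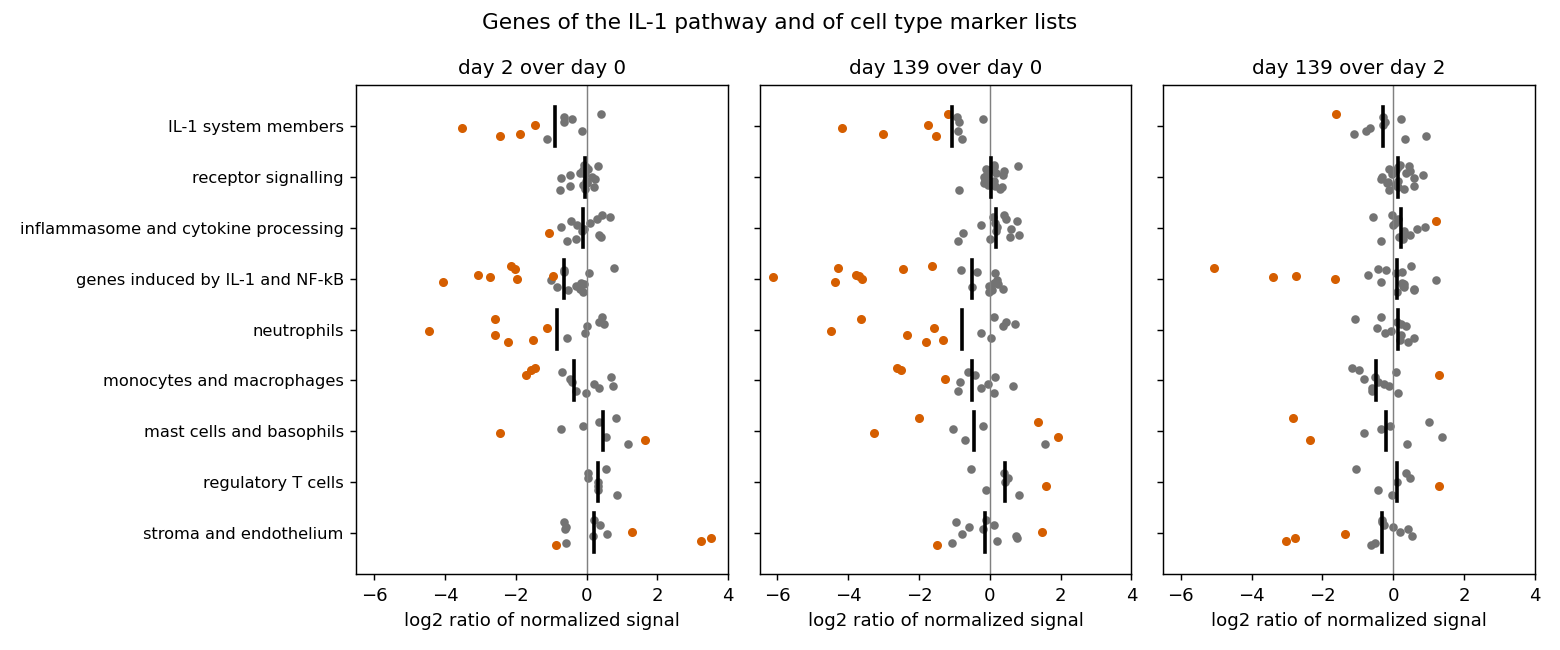
Log2 ratio of normalized signal of each measured gene (points) of the IL-1 system, the pathway lists and the cell type marker lists in the 3 comparisons, with orange points past both criteria and the black bar at the list's median. Receptor signaling holds 0 orange points in any panel. In both comparisons with day 0, the lists of induced genes and of neutrophils spread from genes far below 0 to genes above 0.

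Over the 3 arrays, the genes whose course was nearest to that of Il1r2, out of 12718 candidates, were Il6 (distance 0.38 in log2 units), Mrgpra2a (0.52), Mrgpra2b (0.65), Retnlg (0.66) and Scrg1 (0.67). Only Il6 lay within a distance of 0.5. Retnlg, a neutrophil gene, read 13195, 2214 and 1055. Mrgpra2a and Mrgpra2b, which encode closely related receptors whose probes may not separate them, read 549, 74.1 and 47.7, and 549, 82.4 and 53.5. With 3 arrays a course has few ways to differ, so this likeness is a description only.

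Transcripts of cells known to express IL-1 genes moved too, and their part in the results was not tested. Counts of called markers stand beside 2.88%, 2.45% and 1.96% of all genes called lower in the 3 comparisons, and 2.20%, 3.00% and 2.80% called higher. Of the 12 neutrophil markers, 6 were called lower on day 2 and 6 on day 139, both over day 0, and 0 were called higher. Their summed signal was 268900 on day 0, 117887 on day 2 and 123591 on day 139, and all 12 were well above background on every array. S100a8 and S100a9 carried most of that sum, and the other 10 markers summed to 67946, 54925 and 49462. Most of this remainder was in turn 1 gene that was not called, Csf3r, at 39796, 38837 and 33261. These sums thus follow a few bright genes and not the list as a whole. The median log2 ratio of the 12 was -0.84 on day 2 and -0.79 on day 139, both over day 0. The lowest ratio was that of Mmp8, a granule collagenase (3033, 140 and 135), and the highest that of Camp, an antimicrobial granule peptide (5295, 7500 and 8696), which was not called. Of the 12 monocyte and macrophage markers, 3 were called lower in each comparison with day 0 and 0 higher, with summed signals of 117964, 101732 and 93867. Spic, a transcription factor of red pulp macrophages, read 13170, 4011 and 9906, and Emr1, which encodes the macrophage antigen F4/80, read 2265, 3825 and 3548 and was not called. Cd14, a co-receptor for bacterial lipopolysaccharide, read 3527, 1295 and 577.

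For Il1rl1, the mast cell and basophil markers gave 8 measured genes of 10, with summed signals of 5142, 2111 and 1609, or 1386, 1427 and 1221 without Hdc. On day 2 over day 0, 1 was called higher (Cpa3, a mast cell protease) and 1 lower (Hdc, the histamine-forming enzyme, at 3755, 684 and 389), on day 139 over day 0, 2 were called higher (Mcpt8 and Prss34) and 2 lower (Hdc and Cma1), and on day 139 over day 2, 2 were called lower and 0 higher. The markers did not share a course: 3 were highest on day 0, 2 on day 2 (Cpa3 and Cma1) and 3 on day 139. Cpa3 read 64.7, 204 and 39.8, and Cma1 read 70.8, 126 and, not well above background, 17.6. The basophil protease Mcpt8 took another course, at 27.1, 39.9 and 103. Of the regulatory T cell markers, 7 of 8 were measured and 0 were called lower in any comparison. With 1.96% to 2.88% of all genes called lower, 0 of 7 is near the background and is no result about regulatory T cells. Ikzf2, a transcription factor of these cells, was called higher on day 139 over day 0 and over day 2, at 68.6, 84.9 and 207. Klrg1, the marker with the lowest ratio on day 139, read 184, 266 and 128 and was not called. The list had summed signals of 2187, 2472 and 2986. Foxp3, which defines these cells, read 93.7, 170 and 165. For Il33, the 12 measured stromal and endothelial markers had summed signals of 21054, 40840 and 21108, or 19089, 20628 and 18412 without Col1a1 and Col3a1, and a median log2 ratio of 0.20 on day 2. On day 2 over day 0, 3 of them were called higher, among them Col3a1, a fibrillar collagen (785, 9030 and 1334), and 1 lower, Pdgfra, a growth factor receptor of fibroblasts (1189, 649 and 422).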

How the data were processed

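Total RNA from islet graft-bearing spleens was labeled with Cy3 and hybridized to one-color SurePrint G3 Mouse 8x60K arrays with probes of 60 bases, 1 array per day. The labels and the study's methods name different RNA and labeling kits. Scanner output for each array was deposited by the authors and holds spot intensity on a linear scale with flags, from Feature Extraction 10.7.1.1 per the file headers (9.5.1.1 in the labels and the methods). The software had subtracted background. They also deposited a table of processed intensity values, quantile normalized per the methods, which for the 10 genes differed from the values here by at most 0.0021 on the log2 scale.

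Control spots and spots flagged as outliers were left out, spots of a probe were averaged, and 55679 probes were quantile normalized, set to a floor of 1 and taken to log2. Probes with at least 0.5 of their spots well above background on at least 1 array counted as detected (32108 probes). On single arrays 30291, 29982 and 28088 were well above background, and 0 spots of gene probes were saturated. The number of arrays limits the precision. Where 1 of 2 signals was not well above background, the difference is given as at least N-fold, against the higher of that signal and the lowest signal well above background on its array. A gene was represented by the detected probe with the highest mean signal, and gene names are those of the array. Positions of probes are in mm9, and upstream sequences are those of RefSeq in GRCm38.p6, which held all 10 genes. No annotation of mm9 was used, so the place of a probe within its transcript is not given.

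The members and gene lists were chosen with earlier results of these data known, among them that inflammation genes were highest on day 0, so no list is independent evidence of its direction. Named were the 10 genes, the pathway genes past the criteria (up to 5 per list and comparison, or the one with the largest change), examples of the marker genes with the highest or lowest ratio of a list, the 5 genes nearest to Il1r2 by the Euclidean distance of mean-centered log2 signals, and genes marked as chosen later. Only the quantile normalization, the Z-score and the calls were tested on simulated arrays. These had known changes on day 139 and a noise level that was set and not taken from the data. There were 14 alternatives: background corrected by normexp, with 50 as the offset (limma 3.58.1, R 4.3.3), scaling by the 75th percentile or by 7 spike-in controls, the deposited values, a raised floor, detection on all 3 arrays, no detection filter, flagged spots kept, 4 changes of the Z-score or its use (a window of 250 probes, 1 common SD, a scaled median absolute deviation as the spread, the ratio alone), ratio limits of 2 and 0.5, and genes by the median of their detected probes. Calculations used Python 3.11.15, numpy 2.4.6 and pandas 2.3.3.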

Additional observations from a re-analysis of the deposited data

How the results depend on the processing

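Of 414 repeats of a single log2 ratio under the 14 alternatives, 372 stayed on their side of the criteria and, where not called, moved by less than the error, and none turned a called direction. The counts for the 10 genes moved by over 1.5 times as follows. For day 139 over day 0, where 5 genes were called, the count was 2 under spike-in scaling, 3 with 1 SD over all probes, 8 with the median absolute deviation and 9 by the ratio alone. For day 139 over day 2, where 1 was called, it was 2 under spike-in scaling, 2 with the median absolute deviation and 5 by the ratio alone. On day 2 over day 0, where 4 were called, it was 7 by the ratio alone. For the 57 pathway genes, the counts of 10, 9 and 5 in the 3 comparisons, in the order day 2 over day 0, day 139 over day 0 and day 139 over day 2, were 17, 14 and 9 with the median absolute deviation and 19, 18 and 14 by the ratio alone. With detection on all 3 arrays, fewer genes entered and the first and last became 6 and 3. The last became 2 with normexp and 3 with the raised floor. Apart from those of detection, the causes were not tested.

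Il1r2, and Il1b for day 2, kept their calls under all 14 alternatives. Dim signals moved the values of some genes: the log2 ratio of Il1rn for day 139 over day 0 ranged from -3.08 to -0.79, and that of Il1a for the same comparison, which was not called by both criteria, from -0.90 to 0.15. That of Il1rl1, whose main probe is bright, ranged there from -2.09, by the median over its probes, to -0.79, under spike-in scaling. A signal near background limits Il1rn and Il1a, and bounds are given for that reason. No paired analysis was possible because each day had 1 array, and for the same reason no replicate could be left out.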

Other observations

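Cell types outside the IL-1 system were described by further marker lists, given here as values. In each comparison and direction 1.96% to 3.00% of all genes were called, so a count of 0 or 1 in a list is near the background. The T cell markers (9 genes) had 0 called in any comparison, with summed signals of 15076 on day 0, 19464 on day 2 and 26988 on day 139. Of the 8 B cell markers, 4 were called higher on day 139 over day 0 and 4 over day 2, among them Blk, a kinase of B cell receptor signaling (79.6, 93.7 and 306). All B and T cell markers were well above background on every array. Of the 8 erythroid markers, 1 was called lower on day 2 over day 0 (Ahsp, a hemoglobin chaperone) and 1 on day 139 over day 2 (Gata1, an erythroid transcription factor). Of 7 mesothelial markers, 6 were called higher in each of the 3 comparisons. Upk3b, a membrane protein of mesothelium, was not well above background on day 0 (4.84) and read 45.5 on day 2 and 459 on day 139. Of the islet endocrine markers, 9 of 10 were measured. On day 2 over day 0, 7 were called higher, and on day 139 over day 2, 8 were called lower, among them Chga, a granule protein of endocrine cells (884, 4711 and 392). On day 139 over day 0, 2 islet markers were called lower and 0 higher, with a median log2 ratio of -1.05.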
